A study of Homo sapiens with 12 samples.

Results

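The dual-specificity MAP kinase phosphatases are enzymes that switch off the mitogen-activated protein kinases ERK, JNK and p38. The 10 genes described here, DUSP1, DUSP2, DUSP4, DUSP5, DUSP6, DUSP7, DUSP8, DUSP9, DUSP10 and DUSP16, were chosen by gene name from the 57500 genes of the count table. Total counts would have decided between several identifiers of 1 symbol, but each symbol had 1 identifier. All 10 passed the filter on low counts and are among the 27029 genes tested.

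The libraries came from HCC1806 and MDA-MB-468, established lines of triple-negative breast cancer, a tumour type defined by the lack of hormone receptors and of HER2 amplification. Each line was compared with and without depletion of PACT, a double-stranded RNA binding protein encoded by PRKRA, by CRISPR-Cas9. The 4 groups of 3 libraries were HCC1806 with the control guide sgC1, HCC1806 with sgPACT-2, MDA-MB-468 with the control guide sgNTA, and MDA-MB-468 with sgPACT-2. The series title places PACT as a suppressor of the kinase PKR, and the comparison asks what its loss did to the transcriptome of each line. Because 1 guide was used against PACT, its depletion and other effects of that guide cannot be told apart, and the labels do not say whether the cells were pools or single clones. Levels are read counts scaled to library size (CPM, with TMM factors), fold changes are log2 values with their standard errors (SE), and a gene is said to rise or fall when its adjusted p over all tested genes was under 0.05.

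The HCC1806 libraries held 18640633 to 24704877 counts. Those of MDA-MB-468 were deeper, at 34581754 to 44790741. PRKRA stood at 78.6, 82.6 and 72.1 CPM in HCC1806 control replicates 1 to 3 and at 37.5, 36.1 and 37.3 with sgPACT-2, a fall of the log2 level by 1.07 (SE 0.10, adjusted p = 1.70e-05). In MDA-MB-468 it stood at 41.1, 45.9 and 46.9 CPM in controls and at 39.2, 35.5 and 41.6 with sgPACT-2, a log2 ratio of -0.20 (SE 0.10, adjusted p = 0.958), so the transcript alone does not check the labels of that line; a guide can disrupt a protein without lowering its transcript. EPCAM, EGFR and the keratins KRT8, KRT18 and KRT19 were abundant in both lines, PGR was at most 0.160 CPM on average in every group, and the leukocyte marker PTPRC was at most 0.335. ESR1, the estrogen receptor gene, averaged 20.9 CPM in HCC1806 controls. ERBB2, the gene of HER2, averaged 194 CPM in HCC1806 controls and 155 with sgPACT-2, and 140 and 129 in MDA-MB-468. These levels do not measure amplification. The spread between replicates was larger in HCC1806, with a biological coefficient of variation of 0.204 against 0.0936 in MDA-MB-468 when each line was fitted alone. PACT-depleted replicate 1 of HCC1806 lay at one end of the first principal component of that line (36.3), and depleted replicate 3 at the other (-31.7). That component held 42.9% of the variance and did not separate the arms. Results that rest on depleted replicate 1 are given with and without it.

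MAP kinases are activated by phosphorylation of a threonine and a neighbouring tyrosine, and these phosphatases remove both phosphates. The family falls into nuclear enzymes whose genes are induced by growth factors and stress (DUSP1, DUSP2, DUSP4 and DUSP5), cytoplasmic enzymes selective for ERK (DUSP6, DUSP7 and DUSP9), and enzymes directed mainly at JNK and p38 (DUSP8, DUSP10 and DUSP16). Several are transcribed in response to the kinases they inactivate, so that their transcripts are often read as a record of pathway output.

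After PACT depletion 2 of the 10 phosphatase transcripts rose in HCC1806, DUSP8 and DUSP1, and none fell. Over all genes tested, 2.49% were called in this line, 1.16% as higher. No member was called in MDA-MB-468, where 0.17% of genes were called, although DUSP1 was higher in each depleted library than in each control. The response of DUSP8 differed between the lines, and this was the 1 member with a called difference, against 0.122% of genes. In HCC1806 the members had a median log2 fold change of 0.17, beside 0.01 for all genes tested. This median depends on depleted replicate 1 of that line. Without it DUSP4, DUSP5, DUSP6 and DUSP7 changed sign, to -0.80, -0.28, -0.77 and -0.08. DUSP2 and DUSP9 then stood at -1.01 and -0.33, and DUSP1, DUSP8, DUSP10 and DUSP16 at 0.64, 1.68, 0.35 and 0.30. In MDA-MB-468 the median was 0.07, beside -0.01. At an unadjusted p under 0.05 the members counted 2 in HCC1806 and 1 in MDA-MB-468.

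**Figure D1:**
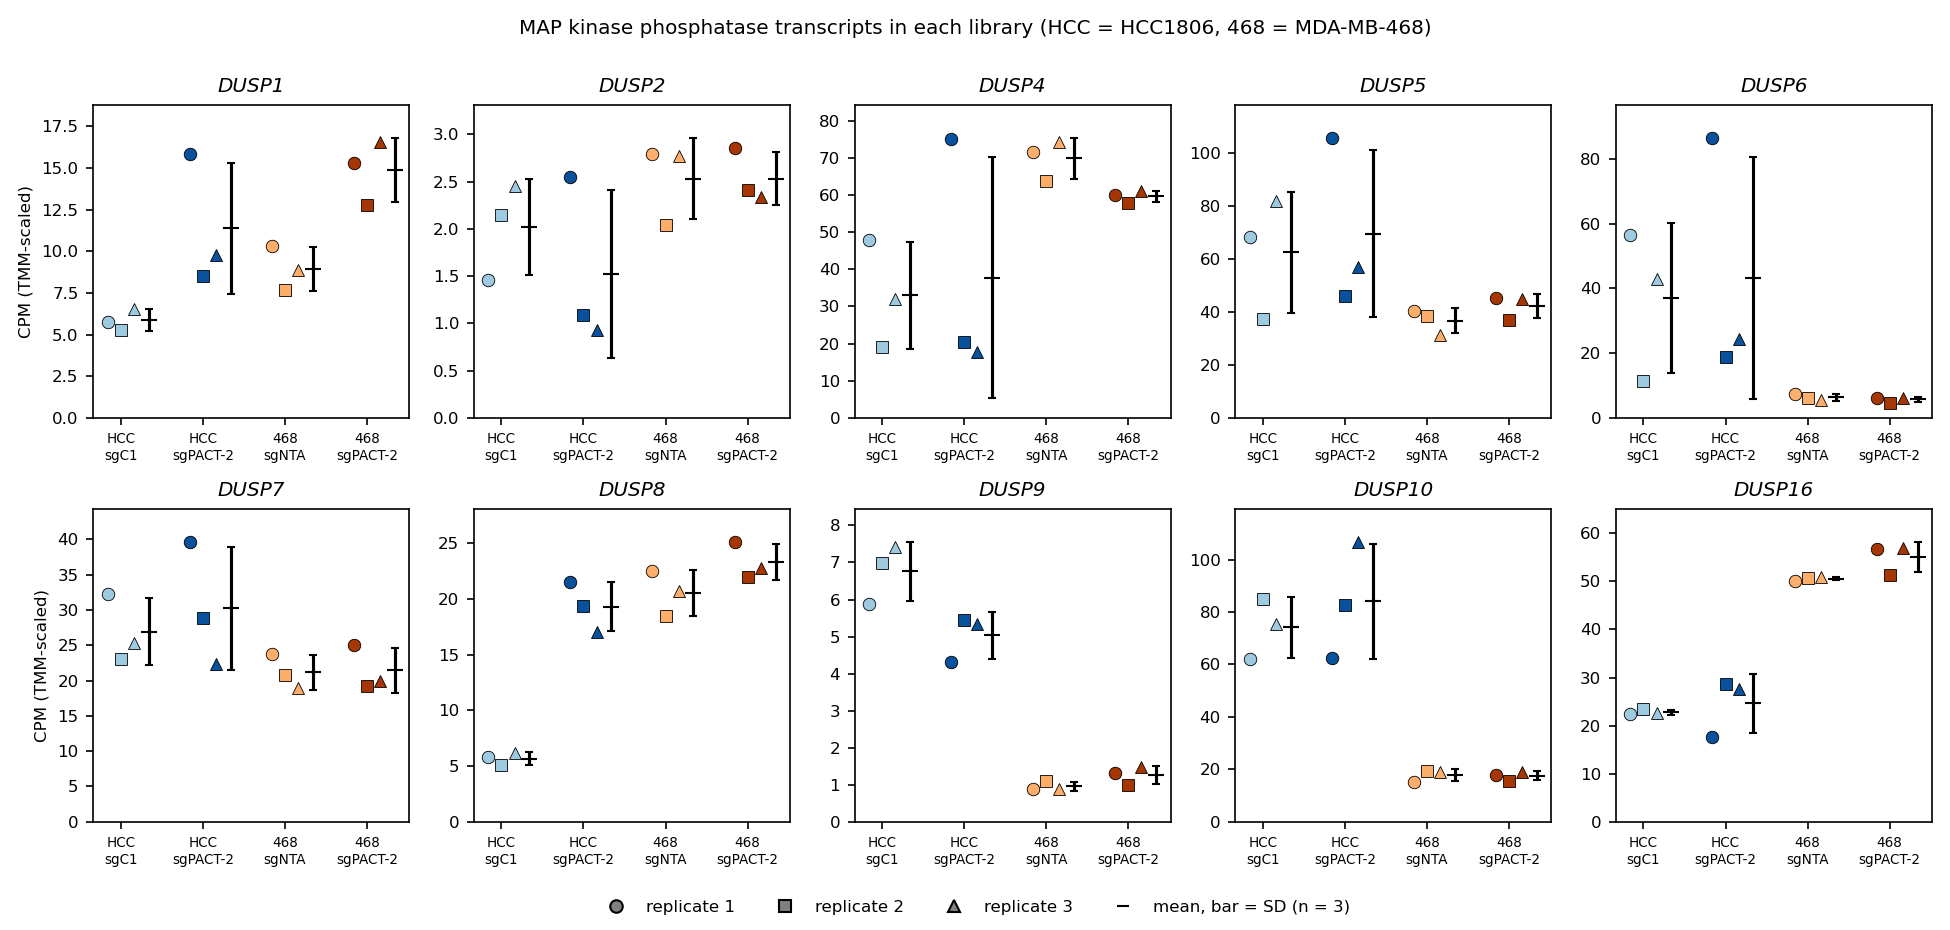
Level of each phosphatase transcript in every library, in TMM-scaled CPM on linear axes starting at 0, with circle, square and triangle for replicates 1, 2 and 3 and a mean with SD bar (n = 3) beside each group. DUSP8 in HCC1806 goes from 5.06 to 6.18 CPM in controls to 17.1 to 21.5 with sgPACT-2, and DUSP4, DUSP5 and DUSP6 spread widely within both HCC1806 groups.

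DUSP8, a phosphatase directed at JNK and p38, showed the largest response of the family (ENSG00000184545, chr11:1554044-1571920, minus strand, GENCODE 29 on GRCh38). In HCC1806 its level was 5.80, 5.06 and 6.18 CPM in control replicates 1 to 3 and 21.5, 19.4 and 17.1 CPM with sgPACT-2. All depleted libraries lay above all controls, and the replicates of each group stayed within 1.26 times of each other. The group means of 5.68 ± 0.57 and 19.3 ± 2.2 CPM (SD, n = 3) gave a log2 ratio of 1.76 (SE 0.14, adjusted p = 2.37e-06). With HCC1806 fitted alone, where 0.315% of genes were called, DUSP8 kept its call (adjusted p = 0.00135), and without depleted replicate 1 its log2 fold change was 1.68. In MDA-MB-468 the controls already stood at 22.5, 18.4 and 20.7 CPM and the depleted libraries at 25.1, 22.0 and 22.8 CPM. These groups overlapped, and the log2 fold change was 0.18 (SE 0.13, adjusted p = 1.00). The depleted HCC1806 libraries, at 17.1 to 21.5 CPM, overlapped the MDA-MB-468 controls at 18.4 to 22.5 CPM. The effect in MDA-MB-468 minus that in HCC1806 was -1.58 on the log2 scale (SE 0.19, adjusted p = 0.00189), and the call held whichever of the 12 libraries was left out. DUSP8P5, a pseudogene copy, held 1786 counts over all libraries, so reads may have been divided between the copies. In HCC1806 it had 5.84, 6.09 and 6.90 CPM in controls, near the level of DUSP8, and 7.30, 8.80 and 7.85 with sgPACT-2. In MDA-MB-468 it had 3.46, 2.74 and 4.34 CPM in controls and 3.96, 4.21 and 2.86 with sgPACT-2, well below DUSP8. The effect of such a division on the DUSP8 values was not tested. KRTAP5-AS1, which lies on the opposite strand without sharing exonic bases, was at 0.13 to 0.30 CPM in HCC1806 controls and 0.83 to 1.00 with sgPACT-2. These levels rest on 3 to 7 and 17 to 25 counts per library. In MDA-MB-468 it was at 3.72 to 4.51 CPM in controls and 3.59 to 4.99 with sgPACT-2, which overlapped.

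DUSP1, a nuclear phosphatase of JNK, p38 and ERK encoded by an immediate early gene, was the other member that rose in HCC1806 (ENSG00000120129, chr5:172768090-172771195, minus strand). Its level there was 5.75, 5.28 and 6.57 CPM in control replicates 1 to 3 and 15.9, 8.49 and 9.78 with sgPACT-2. The groups did not overlap, and depleted replicate 1 stood well above the other depleted libraries. The log2 fold change was 0.95 (SE 0.21, adjusted p = 0.0250). Without depleted replicate 1 it was 0.64 (adjusted p = 0.0329), in a fit that called 6.15% of genes. The call was lost when HCC1806 was fitted alone (adjusted p = 0.169), without control replicate 1 (adjusted p = 0.0849) and without control replicate 2 (adjusted p = 0.0804). In MDA-MB-468 DUSP1 stood at 10.3, 7.70 and 8.86 CPM in controls and at 15.3, 12.8 and 16.6 with sgPACT-2. Every depleted library was again above every control, by 0.73 on the log2 scale (SE 0.20), but the shared fit gave an adjusted p of 0.331. Fitted alone, where 1.51% of genes were called, MDA-MB-468 gave 0.74 with an adjusted p of 5.05e-04. Without depleted replicate 1 of HCC1806 the shared fit called it too (adjusted p = 0.0238). That fit called 98 genes in MDA-MB-468, beside 46 with all libraries. Same-numbered libraries differed by 1.46, 0.69 and 0.58 in HCC1806 and by 0.57, 0.73 and 0.90 in MDA-MB-468 on the log2 scale. The difference between the lines was -0.22 (SE 0.29, adjusted p = 0.912), which was not detectable at this spread.

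With the replicate number as a block, 7.2% of genes were called in HCC1806 and 0.377% in MDA-MB-468. DUSP1 in HCC1806 then had an adjusted p of 0.00306 and in MDA-MB-468 one of 0.0549. The block changed no member's call.

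**Figure D2:**
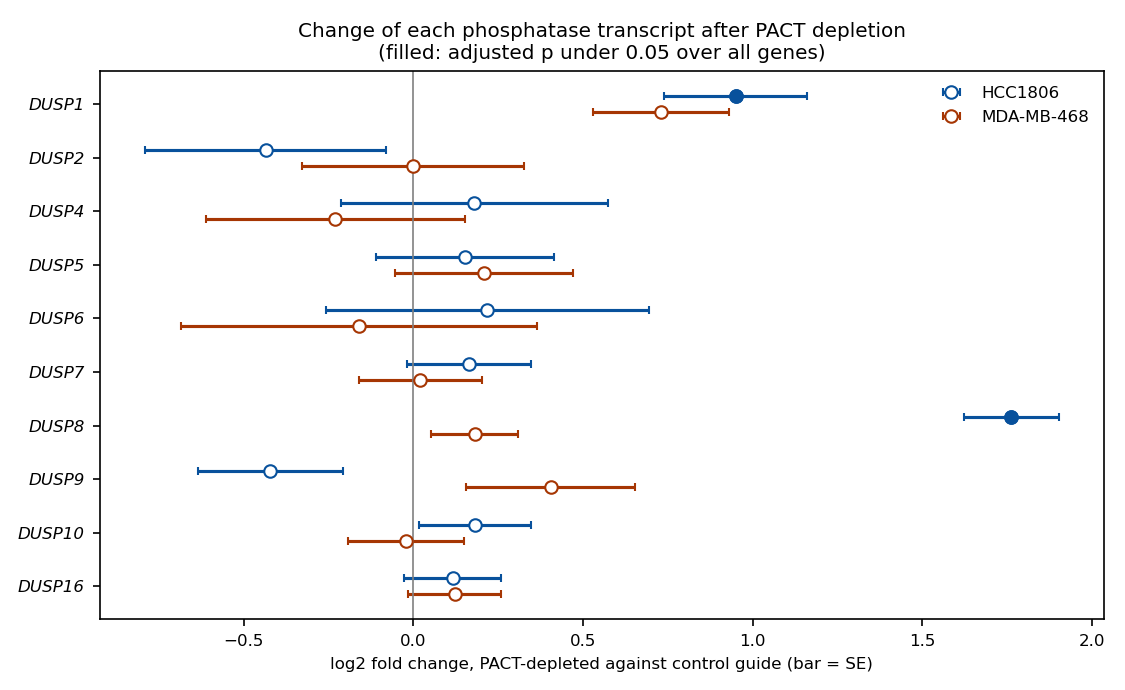
Log2 fold change of each phosphatase transcript after PACT depletion in HCC1806 (blue) and MDA-MB-468 (brown), with SE bars and filled points for adjusted p under 0.05. DUSP8 at 1.76 and DUSP1 at 0.95, both in HCC1806, are the filled points.

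The sequences upstream of these 2 genes are shown because they were the 2 members called after depletion. Of the 10 members, 8 were searched with promoters from the RefSeq promoter table (GRCh38.p14), and DUSP4 and DUSP5 were not among them. The 200 bases before each RefSeq start, chr5:172771196-172771395 for DUSP1 and chr11:1572272-1572471 for DUSP8, both on the minus strand, read 5′ to 3′ as below, with capitals marking matches to the searched motifs. RefSeq places the DUSP8 start upstream of the GENCODE 29 gene.
DUSP1: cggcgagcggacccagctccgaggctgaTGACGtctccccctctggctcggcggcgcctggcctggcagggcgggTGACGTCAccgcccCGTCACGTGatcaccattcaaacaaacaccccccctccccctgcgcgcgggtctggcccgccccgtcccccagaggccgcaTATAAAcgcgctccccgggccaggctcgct
DUSP8: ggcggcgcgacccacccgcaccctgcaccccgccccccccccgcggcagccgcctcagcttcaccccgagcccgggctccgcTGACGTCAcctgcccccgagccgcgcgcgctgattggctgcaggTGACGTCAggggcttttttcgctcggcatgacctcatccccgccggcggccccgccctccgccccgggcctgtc
The motifs were searched on both strands in the 250 bases before the start. The cAMP response element TGACGTCA, the site of CREB and ATF proteins, was found once in DUSP1, from 125 to 118 bases before the start, and at 118 to 111 and 74 to 67 bases before it in DUSP8. None of the other 6 matched members held it, and 1.65% of 35116 promoters did. The shorter TGACG, which lies within that element, was held by 21.2% of promoters. DUSP1 also held the E-box CACGTG, which 6.34% of promoters and DUSP2 held, and TATAAA from 30 to 25 bases before the start, found in 10.7%. TGANTCA (6.57% of promoters), TGATGNAA (3.14%), CCGGAAGT (3.42%), the CArG box (1.16%) and the NF-kappaB site (5.21%) matched no member. A match describes letters in this window and does not show that a factor binds there.

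The other JNK- and p38-directed phosphatases did not pass the test in either line. DUSP10 had 62.1, 85.0 and 75.3 CPM in HCC1806 controls and 62.6, 82.9 and 107 CPM with sgPACT-2. These groups overlapped, with a log2 ratio of 0.18 (SE 0.16, adjusted p = 0.709), and in MDA-MB-468 the levels of 15.1 to 19.5 CPM in controls and 15.7 to 19.0 after depletion overlapped as well. DUSP16 had 22.4, 23.4 and 22.6 CPM in HCC1806 controls, the narrowest range of the family there, and 17.6, 28.7 and 27.6 CPM after depletion. Its depleted libraries lay on both sides of the controls. Without depleted replicate 1 the log2 fold changes of DUSP10 and DUSP16 in HCC1806 were 0.35 (adjusted p = 0.168) and 0.30 (adjusted p = 0.0898). Other omissions removed these values: DUSP10 was -0.030 without depleted replicate 3, and DUSP16 was -0.0055 without depleted replicate 2. In MDA-MB-468 DUSP16 went from 50.2, 50.7 and 50.8 CPM to 56.8, 51.4 and 56.9 CPM. The depleted libraries were all higher, but by 0.12 on the log2 scale (SE 0.14, adjusted p = 1.00).

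Among the nuclear phosphatases, DUSP4, which acts on ERK and JNK, had 47.9, 19.1 and 32.0 CPM in HCC1806 controls and 75.1, 20.3 and 17.7 CPM with sgPACT-2. Depleted replicate 1 was the highest library and depleted replicate 3 the lowest, and the log2 fold change was 0.18 (SE 0.39, adjusted p = 0.914). Without depleted replicate 1 it became -0.80 (adjusted p = 0.0310), a call in a fit that called 6.15% of genes. It was -0.09 without control replicate 2 and -0.019 with the replicate block. The direction of DUSP4 in HCC1806 thus depends on single libraries and on the model. In MDA-MB-468 DUSP4 went from 71.6, 63.7 and 74.2 CPM to 59.9, 57.9 and 60.9 CPM. All depleted libraries were below the controls, by -0.23 on the log2 scale (SE 0.38, adjusted p = 1.00) in the shared fit and -0.21 (adjusted p = 0.186) in the line alone. DUSP5, an ERK-selective nuclear enzyme, had 68.5, 37.4 and 81.9 CPM in HCC1806 controls and 106, 46.2 and 57.1 CPM after depletion, and the groups overlapped (log2 fold change 0.15, SE 0.26, adjusted p = 0.881). Without depleted replicate 1 it was -0.28 (adjusted p = 0.569), and without control replicate 2 it was -0.11. DUSP2, a nuclear enzyme best known from leukocytes, was the member with the lowest level per length in HCC1806, at 1.46, 2.15 and 2.46 CPM in controls and 2.55, 1.08 and 0.93 CPM after depletion. Its groups overlapped in both lines. The log2 fold change in HCC1806 was -0.43 (adjusted p = 0.668), and -1.01 (adjusted p = 0.0884) without depleted replicate 1. In MDA-MB-468, DUSP5 ranged from 31.3 to 40.5 CPM in controls and from 37.1 to 45.2 CPM after depletion, and DUSP2 from 2.04 to 2.79 and from 2.34 to 2.85 CPM; neither passed the test.

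Among the cytoplasmic ERK phosphatases, DUSP6 had 56.5, 11.5 and 42.8 CPM in HCC1806 controls and 86.4, 18.7 and 24.5 CPM with sgPACT-2. The groups overlapped from 18.7 to 56.5 CPM (log2 fold change 0.22, SE 0.48, adjusted p = 0.914). Without depleted replicate 1 the log2 fold change was -0.77 (adjusted p = 0.254), and without control replicate 2 it was -0.20. DUSP6 shares 1875 exonic bases with the antisense gene AC024909.2, whose levels in the same libraries were 8.09, 0.85 and 5.59 CPM and 14.9, 0.87 and 3.51 CPM, and reads of these genes cannot be told apart without strand. DUSP7 had 32.2, 23.1 and 25.4 CPM in HCC1806 controls and 39.6, 28.8 and 22.3 CPM after depletion, which overlapped (log2 fold change 0.16, and -0.08 without depleted replicate 1). In MDA-MB-468, DUSP6 ranged from 5.42 to 7.52 CPM in controls and from 4.66 to 6.21 CPM after depletion. DUSP7 ranged there from 18.9 to 23.7 CPM and from 19.2 to 25.1 CPM, and the groups of both genes overlapped. DUSP9 (ENSG00000130829, on the X chromosome) had 5.88, 6.98 and 7.41 CPM in HCC1806 controls and 4.31, 5.46 and 5.34 CPM after depletion. Each depleted library was below each control, but the log2 fold change of -0.42 (SE 0.21) did not pass the test (adjusted p = 0.394). It was -0.33 without depleted replicate 1. In MDA-MB-468 DUSP9 was scarce, at 0.89, 1.10 and 0.87 CPM in controls and 1.31, 0.99 and 1.48 CPM after depletion. Its difference between the lines, 0.83 on the log2 scale (SE 0.33), did not pass either (adjusted p = 0.490).

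DUSP4, DUSP5 and DUSP6 varied among replicates of HCC1806 far more than most genes. The highest HCC1806 control was 4.93 times the lowest for DUSP6, a ratio reached by 9 of the 15362 genes averaging 50 counts or more. The ratio was 2.51 for DUSP4, reached by 1.18% of those genes, and 2.19 for DUSP5, reached by 2.49%, while the median gene had 1.25. In MDA-MB-468 controls the same ratios were 1.39, 1.16 and 1.29. Control replicate 2 of HCC1806 was the lowest control for all 3 genes, and depleted replicate 1 the highest library. EGR1 and FOSL1, which ERK signalling is known to induce, had the same extremes. EGR1, an immediate early transcription factor, had 62.8, 6.98 and 181 CPM in HCC1806 controls and 256, 31.0 and 116 CPM after depletion. FOSL1, an AP-1 subunit, had 132, 37.5 and 90.9 CPM and then 297, 87.0 and 62.0 CPM. SPRY4, an inhibitor of receptor tyrosine kinase signalling, had 27.0, 8.15 and 15.5 CPM and then 63.3, 23.0 and 18.4 CPM. Of 20 ERK output genes, 16 had control replicate 2 as the lowest of the 3 HCC1806 controls, and 18 had depleted replicate 1 as the highest of the 3 depleted libraries. Over 15626 genes of that line these shares were 35.4%, near an even split over the 3 controls, and 44.2%.

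**Figure D3:**
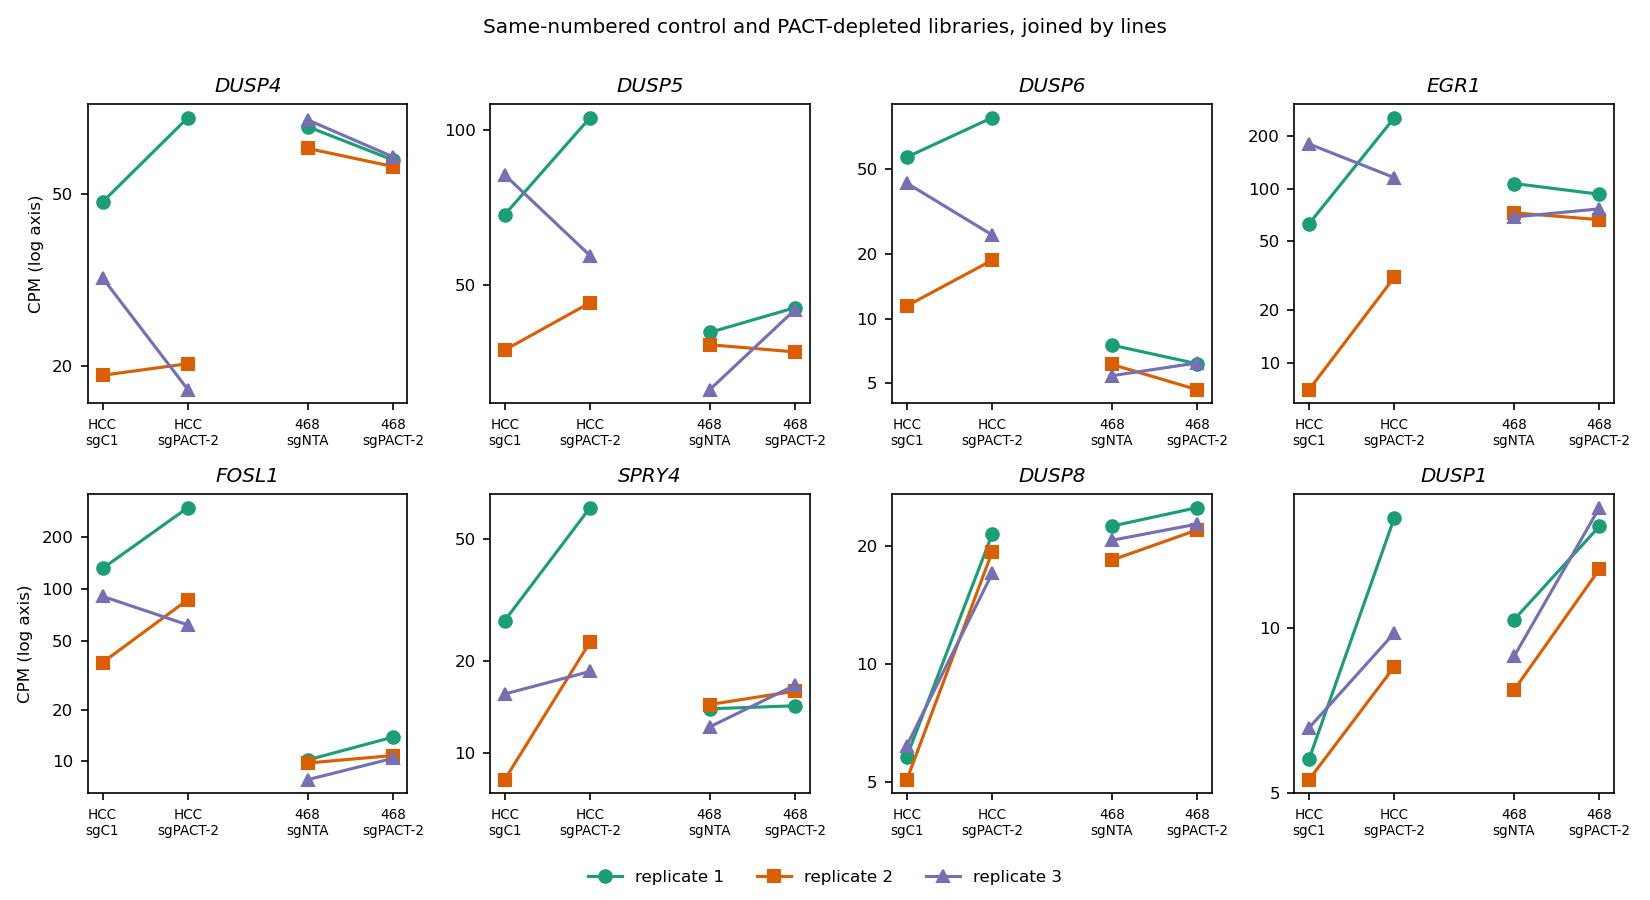
Levels of 5 phosphatases and 3 ERK output genes in same-numbered control and PACT-depleted libraries, in CPM on log axes, with lines joining replicate 1 (green), 2 (orange) and 3 (purple). In HCC1806 the lines of DUSP4, DUSP5, DUSP6, EGR1 and FOSL1 do not share a direction, while those of DUSP8, DUSP1 and SPRY4 go up in all 3 pairs.

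The lines themselves differed in their phosphatases. Of the 10 members, 8 differed between the control cells, 4 higher and 4 lower in MDA-MB-468, where 74.2% of all genes were called (34.2% higher and 40.1% lower), so the count is near the background. Line and control guide cannot be told apart in this comparison. Higher in MDA-MB-468 were DUSP8 by 1.85 (SE 0.14, adjusted p = 1.93e-09), DUSP16 by 1.15, DUSP4 by 1.08 and DUSP1 by 0.61 on the log2 scale. Lower there were DUSP9, with a log2 difference of -2.82 (SE 0.23, adjusted p = 8.74e-09), DUSP6 with -2.54, DUSP10 with -2.06 and DUSP5 with -0.77. With the filter at a mean of 50 counts DUSP1 and DUSP4 lost this call, at 0.30 (adjusted p = 0.201) and 0.77 (adjusted p = 0.101). DUSP1 also lost it with library sizes alone as scaling (adjusted p = 0.108) and without MDA-MB-468 control replicate 1 (adjusted p = 0.0668). DUSP4 also lost it under DESeq2 (adjusted p = 0.0754) and without HCC1806 control replicate 2 (adjusted p = 0.0824) or 3 (adjusted p = 0.0510). DUSP5 lost it without HCC1806 control replicate 1 (adjusted p = 0.0501) or 3 (adjusted p = 0.118) and without MDA-MB-468 control replicate 3 (adjusted p = 0.0612). DUSP2 was not called. DUSP7, at -0.35 (adjusted p = 0.0937), was not called either, but was called as lower in MDA-MB-468 with library size alone (-0.59, adjusted p = 0.00290), at a mean of 50 counts (-0.66, adjusted p = 0.00369), without the filter (-0.33, adjusted p = 0.0419) and without HCC1806 depleted replicate 1 (adjusted p = 0.0398). Library size alone moved the median of all genes by -0.25 in this comparison, and the filter at a mean of 50 counts by -0.31.

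Per kilobase of exon, DUSP10 and DUSP5 led in HCC1806 controls at 25.4 ± 3.9 and 23.9 ± 8.7 CPM per kb (SD, n = 3), and their ranges overlapped. DUSP6 followed at 7.97 ± 4.99, then DUSP7 at 4.76, DUSP4 at 4.55 and DUSP16 at 3.98 CPM per kb, neighbours that overlapped in turn. DUSP1 at 2.91 and DUSP9 at 2.43 overlapped, as did DUSP8 at 1.23 and DUSP2 at 1.05. In MDA-MB-468 controls DUSP5 led alone at 14.0 ± 1.8 CPM per kb, followed by DUSP4 at 9.62 and DUSP16 at 8.83, which overlapped, and by DUSP10 at 6.12. DUSP8 and DUSP1 were level at 4.45 and 4.44 CPM per kb, DUSP7 stood at 3.74, DUSP6 and DUSP2 at 1.37 and 1.31, and DUSP9 came last at 0.343. By mean level the ERK-selective cytoplasmic enzymes DUSP6, DUSP7 and DUSP9 thus ranked lower in MDA-MB-468 than in HCC1806. So did DUSP10, which is directed at JNK and p38. The other members ranked higher there, both DUSP8 and DUSP16 and the nuclear enzymes DUSP1, DUSP2, DUSP4 and DUSP5. Some of these shifts were small. DUSP5 went from rank 2 to rank 1 although its level was lower in MDA-MB-468, at 14.0 against 23.9 CPM per kb. DUSP2 went from rank 10 to rank 9 and overlapped a neighbour in rank in both lines.

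**Figure D4:**
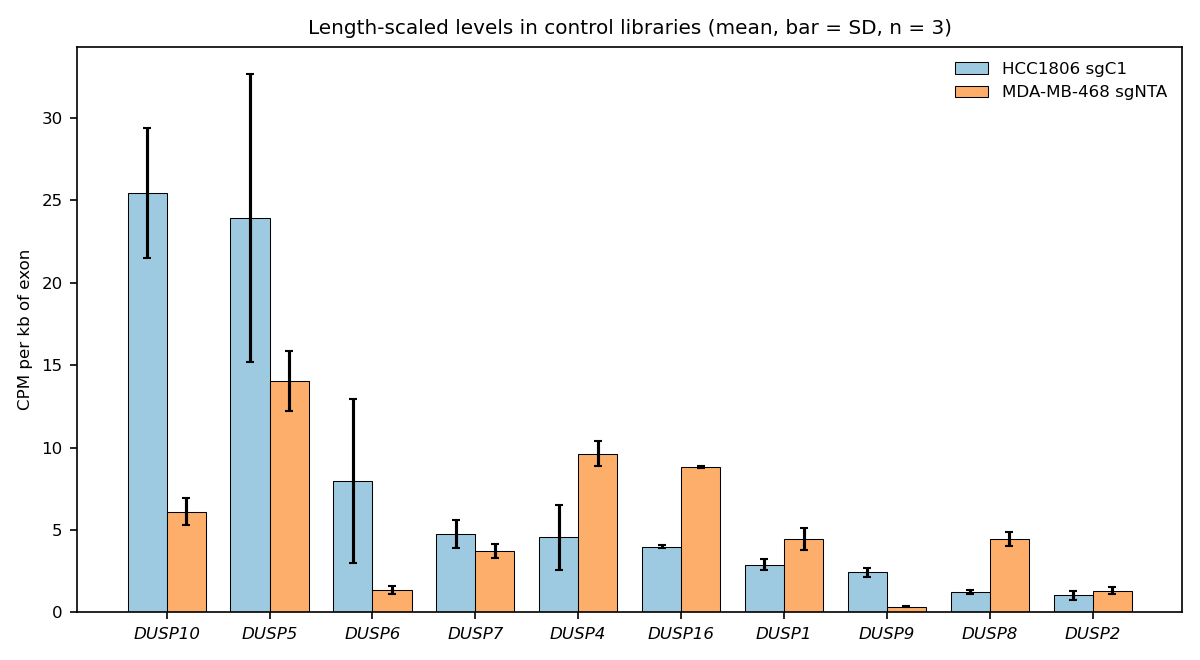
Mean level of each phosphatase in control cells of HCC1806 (blue) and MDA-MB-468 (orange), in CPM per kb of exon on a linear axis from 0, with SD bars (n = 3). DUSP10 stands at 25.4 in HCC1806 and 6.12 in MDA-MB-468, and DUSP8 at 1.23 and 4.45.

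None of the 10 genes of the ERK, JNK and p38 kinases, on which these phosphatases act, passed the test in either line. The unadjusted p was under 0.05 for 1 of them in HCC1806 and 0 in MDA-MB-468. Among all genes tested, 2.49% were called in HCC1806, 1.16% as higher, and 0.17% in MDA-MB-468. Of 21 upstream kinases and scaffolds, 3 rose in HCC1806: MAPK8IP2, a JNK scaffold, by 1.18 on the log2 scale (adjusted p = 0.0183), MAP3K8 by 0.63 and MAP3K1 by 0.42. In MDA-MB-468, MAP3K14, the NF-kappaB-inducing kinase, rose by 0.86 (SE 0.16, adjusted p = 0.0361). Of 14 activators of the stress kinases, GADD45A, a binding partner of the kinase MAP3K4, rose in both lines, from 14.8 ± 3.7 to 33.2 ± 10.1 CPM in HCC1806 and from 32.0 ± 1.3 to 68.3 ± 11.4 CPM in MDA-MB-468 (SD, n = 3). GADD45B rose in HCC1806 by 0.84 and GADD45G in MDA-MB-468 by 1.51. Of 17 stress kinase targets, the transcription factor ATF3 rose in both lines, by 2.55 (SE 0.14, adjusted p = 3.19e-08) in HCC1806 and 1.63 (SE 0.13, adjusted p = 7.89e-06) in MDA-MB-468, and DDIT3 rose in HCC1806 by 0.80.

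Of the 20 ERK output genes, the cytokine genes IL11 and LIF rose in HCC1806, by 1.19 (adjusted p = 0.0456) and 0.67 (adjusted p = 0.0414), beside 2.49% of all genes called, and none was called in MDA-MB-468. With the block, 5 of the 20 were called in HCC1806, in a fit that called 7.2% of all genes. Of 12 tested atypical dual-specificity phosphatases, which lack the kinase-binding domain of the family, DUSP15 rose in HCC1806 from 0.613 ± 0.249 to 3.03 ± 1.36 CPM. Of 10 other phosphatases of MAP kinases, PPM1D, a p53-induced phosphatase of p38, rose in HCC1806 by 0.85 (adjusted p = 0.0179). In that line 1.16% of all genes were called as higher. No member of any of these lists fell in either line. With HCC1806 fitted alone, GADD45B (adjusted p = 0.0439) and ATF3 (adjusted p = 1.43e-04) kept their calls and the other genes named here for that line lost theirs. In HCC1806 the epithelial genes EPCAM and CDH1 and the basal keratin KRT5 fell by 0.55, 0.38 and 0.92, of 17 markers tested. Of all genes, 1.32% were called as lower there. The summed level of the markers of other cell types was 43.4 to 51.2 CPM in HCC1806 controls and 55.3 to 58.2 with sgPACT-2, most of it COL1A1, and COL1A2 was at most 0.279 CPM on average in any group. The part of these in the results was not tested.

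**Figure D5:**
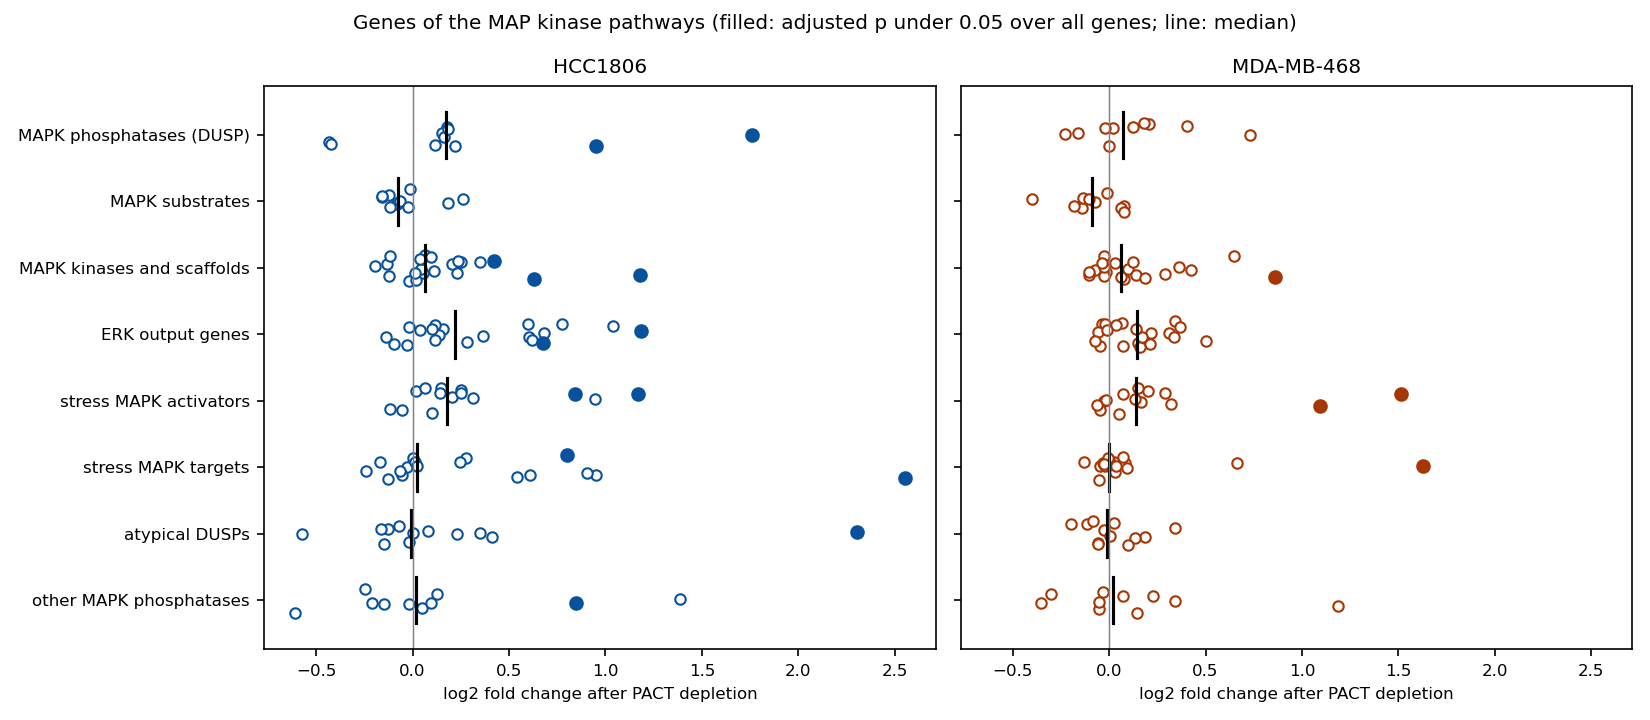
Log2 fold change after PACT depletion of every tested gene of 8 lists, with HCC1806 on the left and MDA-MB-468 on the right, filled points for adjusted p under 0.05 and a black line at each list's median. ATF3, at 2.55 and 1.63, is the rightmost filled point of each panel.

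The genes most like DUSP1 and DUSP8 over the 12 libraries were found by the root mean square difference in log2 level, each gene centred on the controls of its line, among 12993 genes. Closest to DUSP1 were NOCT (0.15), CSRNP1 (0.16) and MAFF (0.19), beside a root mean square of 0.62 for DUSP1 itself. NOCT averaged 10.3 ± 1.9 CPM in HCC1806 controls and 19.0 ± 2.9 with sgPACT-2, and 11.6 ± 1.3 and 19.9 ± 1.8 in MDA-MB-468 (SD, n = 3). All 3 of these genes had depleted libraries above all controls in both lines, as DUSP1 had. They were chosen for likeness over these same libraries, so this follows from the choice and is not separate evidence. Closest to DUSP8 were SLC43A2 (0.15), RND1 (0.21) and THAP10 (0.27), beside 0.89 for DUSP8. SLC43A2, an amino acid transporter, averaged 2.63 ± 0.11 CPM in HCC1806 controls and 9.33 ± 1.08 with sgPACT-2, but 21.6 ± 1.3 and 23.6 ± 1.1 in MDA-MB-468. Its MDA-MB-468 groups overlapped as those of DUSP8 did, which again follows from the choice.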

How the data were processed

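Total RNA of 12 libraries was treated with DNase, depleted of rRNA and sequenced after NEBNext Ultra II library construction, per the labels. The authors deposited raw counts of reads per Ensembl gene, not normalized. The submitters' processing notes name Trimmomatic 0.36, STAR 2.5.2b, featureCounts, Subread 1.5.2 and GRCh38; the strand setting and annotation release are not given in the sources used here. Gene coordinates and exon lengths came from GENCODE 29 (GRCh38) by Ensembl ID.

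Counts were tested with edgeR 4.0.16 in R 4.3.3 (limma 3.58.1): filterByExpr, TMM, and 1 quasi-likelihood model over all 12 libraries with a coefficient per group, two-sided, with Benjamini-Hochberg adjustment over 27029 genes. CPM are TMM-scaled, means carry the SD over 3 libraries, and SE come from the model. The contrasts were sgPACT-2 against the control guide in each line, the difference of these effects, and MDA-MB-468 against HCC1806 controls. The steps were tested on simulated data. Alternatives were DESeq2 1.42.0, RLE size factors, library size only, no filter, a mean of at least 50 counts, each line alone, the replicate block, an adjusted p under 0.01 and leaving out each library. Figures used Python 3.11.15 and matplotlib 3.10.9.

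The labels do not say that replicates were separate cultures, so p-values measure the spread between these libraries, which may be technical. Deviations from the group mean of same-numbered libraries correlated across 12993 genes at 0.54, 0.37 and 0.15 in HCC1806 and 0.22, 0.11 and 0.22 in MDA-MB-468, so the numbers, shared in the titles, were taken to pair the libraries; HCC1806 control 2 correlated more with depleted 3 (0.43). The members and lists were chosen with earlier results of these data known. All members were named; of each list, at most the 4 called genes with the smallest p in each line; and for each member called after depletion, the 3 genes of most like pattern among those averaging 50 counts or more in each line. EGR1, FOSL1, SPRY4, pseudogenes and antisense genes were added after their values were seen.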

Additional observations from a re-analysis of the deposited data

Results flagged for a closer look

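DUSP8 was singled out because its effects in the 2 lines differed by the test of the difference itself. It rose in HCC1806, and its effect in MDA-MB-468 minus that in HCC1806 was -1.58 on the log2 scale (SE 0.19, edgeR adjusted p = 0.00189). The pairs of same-numbered libraries differed by 1.89, 1.94 and 1.46 in HCC1806 and by 0.16, 0.26 and 0.14 in MDA-MB-468. Control cells of MDA-MB-468 already held 20.6 ± 2.0 CPM (SD, n = 3), against 5.68 ± 0.57 in HCC1806.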

How the results depend on the processing

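The rise of DUSP8 in HCC1806 and its difference between the lines kept their direction and call under every alternative run. Of the member values, 697 kept direction and call, 17 lost the call, 7 gained it and 49 changed sign. Members called in HCC1806 were 2, but 1 with the line alone or at an adjusted p under 0.01, and 1 to 3 leaving out 1 library. In MDA-MB-468 they were 0, but 1 without the filter or with the line alone, and 0 to 1 leaving out 1 library; DUSP1 was that member. Between the controls they were 8, but 5 at an adjusted p under 0.01, and 6 to 9 leaving out 1 library. The 1 member with a difference between the lines was called in each of these fits. Genes called in HCC1806 were 672, and 1245 under DESeq2, 1351 without the filter, 74 with the line alone, 1947 with the replicate block, 160 at an adjusted p under 0.01 and 301 to 1792 leaving out 1 library. In MDA-MB-468 they were 46, and 113, 143, 323, 102, 22 and 19 to 98 in the same order. For the difference between the lines they were 33, and 178 under DESeq2, 275 without the filter, 271 with the block, 9 at an adjusted p under 0.01 and 9 to 168 leaving out 1 library. Between controls they were 20068, and 13022 at a mean of at least 50 counts, where fewer genes were tested, and 18973 to 21248 leaving out 1 library. Leaving out 1 library moved some values far across 0. Without HCC1806 depleted replicate 1, DUSP4 and DUSP6 in HCC1806 were -0.80 (edgeR adjusted p = 0.0310) and -0.77 (adjusted p = 0.254). Under the other alternatives signs changed near 0: DUSP4 in HCC1806 was -0.019 with the replicate block. DUSP2 in MDA-MB-468 was 0.0022 under DESeq2, 0.0020 with RLE, 0.047 with library size only, 0.0049 at a mean of at least 50 counts, 0.013 alone and 0.0058 with the block. With library size only, DUSP10 in MDA-MB-468 was 0.023, and the differences between the lines of DUSP5 and DUSP16 were -0.014 and -0.078; the latter was -0.021 at a mean of at least 50 counts. Leaving out 1 library, log2 fold changes in HCC1806 ranged from -0.80 to 0.54 for DUSP4, -0.28 to 0.39 for DUSP5, -0.77 to 0.66 for DUSP6, -0.078 to 0.34 for DUSP7, -0.030 to 0.35 for DUSP10 and -0.0055 to 0.30 for DUSP16. In MDA-MB-468 they ranged from -0.14 to 0.073 for DUSP2, -0.11 to 0.11 for DUSP7 and -0.13 to 0.053 for DUSP10. The differences between the lines ranged from -0.38 to 0.10 for DUSP1, -0.76 to 0.59 for DUSP4, -0.17 to 0.50 for DUSP5, -0.81 to 0.62 for DUSP6, -0.31 to 0.11 for DUSP7, -0.36 to 0.019 for DUSP10 and -0.17 to 0.14 for DUSP16. Library size alone moved the median of all genes in HCC1806 by 0.12. The causes of these changes were not tested. Fitting each line alone gives no difference between lines, and the block was not fitted for the controls. DUSP2 and, in MDA-MB-468, DUSP9 rest on few counts, which limits what could be detected.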
